A study of Mus musculus with 12 samples.

Results

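The liver array of mice given small interfering RNA (siRNA) against G0s2 was compared with the liver array of mice given a control siRNA at day 7. These are 2 of the 12 arrays of the series, and they were found from their labels. The mice were male and of the outbred ICR strain, were 5 weeks old and had 1 week of adaptation, and 1.6 nmol of siRNA was injected into a vein together with a lipid carrier. The protocol in the labels sets the injection on the day before the drinking water received diethylnitrosamine (DEN, a DNA-alkylating carcinogen of the liver). For the siRNA arrays, however, the labels give the siRNA alone and do not state whether these mice drank DEN. The other 4 day-7 arrays are titled DEN (80 mg/L in the water), ATRA+DEN (both agents), ATRA (all-trans retinoic acid, the active form of vitamin A, at 30 mg/L) and vehicle, and they served as the range against which each siRNA array was placed. For 3 of these, the arrays titled DEN, ATRA+DEN and ATRA, another label field names a different treatment. Titles were used, and the range over all 4 does not depend on that choice. A further pair of siRNA arrays was taken at day 2. Each group has 1 array, and the labels do not say whether it holds the RNA of 1 animal or of a pool. No spread between animals could therefore be had, no difference was tested, and every value below describes these arrays.

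G0s2 encodes a small protein that binds adipose triglyceride lipase (Pnpla2), the enzyme that starts the breakdown of stored triglyceride, and blocks it, while Abhd5 activates the same enzyme. The protein sits on lipid droplets, and in liver it limits the release of fatty acids from them. An siRNA guides the cell's own RNA interference machinery to a matching messenger RNA, which is then cut.

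G0s2 was read by 1 probe of 60 bases on chr1:195098925-195098984 of mouse genome build mm9, on the minus strand. Its sequence is shown because every statement on the knockdown rests on it. The probe starts at base 212 of the transcript, and the capitals mark the first ATG in it, at position 17, where the coding sequence of G0s2 starts.
G0s2 probe: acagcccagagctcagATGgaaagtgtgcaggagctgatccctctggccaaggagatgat

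G0s2 itself stood lower under G0s2 siRNA than under control siRNA at day 7. Its processed signal was 822 in the G0s2 siRNA array and 2207 in the control siRNA array. Levels here are log2 of the processed signal minus the 75th percentile of the array's own probes, so that 0 is that percentile, and on this scale G0s2 stood at 2.26 in the G0s2 siRNA array and at 3.45 in the control siRNA array. The log2 difference was -1.19, that is 43.7% of the control level or 2.29-fold lower. The error that the Agilent software assigns to the signals gave 0.20 for this difference, as it did for Alb. It is not a spread measured over spots or animals. The other day-7 levels were 3.39 in the DEN array, 2.83 in the ATRA+DEN array, 4.22 in the ATRA array and 3.93 in the vehicle array. The G0s2 siRNA array was thus the lowest of the 6 day-7 arrays, 1.49-fold below the next one, whereas the other 4 spanned 2.61-fold among themselves and the control siRNA array lay inside their range. G0s2 held rank 141 from the bottom among 16932 measured genes, and 0.827% of genes were lower still in the G0s2 siRNA array. At day 2 the same difference was -1.85, that is 3.60-fold.

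**Figure D1:**
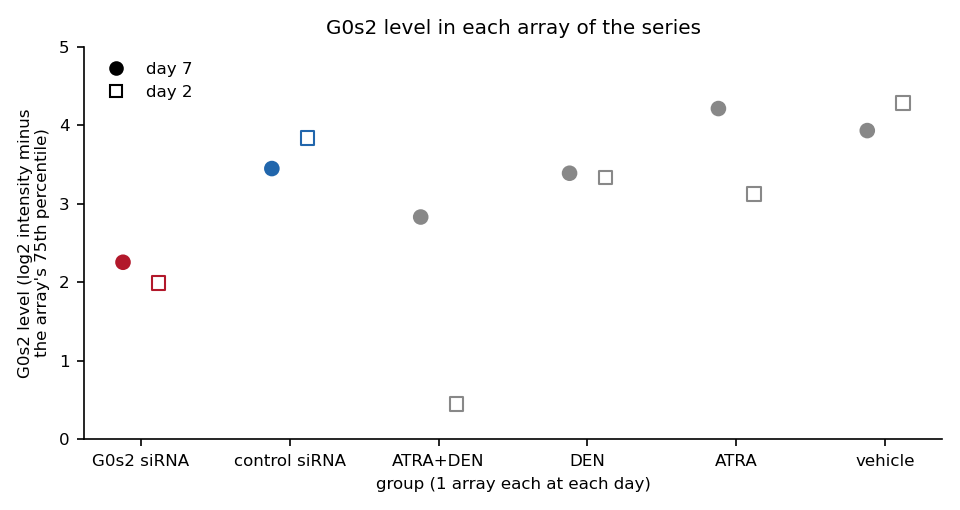
G0s2 level in each of the 12 arrays, as log2 intensity minus the array's 75th percentile, by group, with filled circles for day 7 and open squares for day 2. At day 7 the G0s2 siRNA array at 2.26 lies below the control siRNA array at 3.45 and below the other 4 arrays, and at day 2 the lowest level is 0.44 in the ATRA+DEN array.

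The genes beside G0s2 on chromosome 1 stayed close to the control siRNA array. Hsd11b1, which regenerates active glucocorticoid and is the nearest gene on one side, had 8.16 in the G0s2 siRNA array and 8.07 in the control siRNA array. Lamb3, a laminin chain gene on the other side, had -1.96 in the G0s2 siRNA array and -1.82 in the control siRNA array. Utp25 differed by 0.26, and Plxna2, a semaphorin co-receptor, by -0.73. None of these neighbours was 2-fold apart. Camk1g was well above background in the G0s2 siRNA array only, at least 2.14-fold higher there, and Traf3ip3 and Syt14 were well above background in neither array.

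All 12 arrays carried 59305 spots that were not controls, for 55681 probes, and none was saturated. The share of probes well above background ran between 41.0% and 50.7% over the arrays, with the lowest share, 41.0%, in the G0s2 siRNA array of day 7 and 43.8% in its control siRNA array. Probes printed on 3 or more spots varied with a median log2 SD of 0.077 in the G0s2 siRNA array and 0.070 in the control siRNA array. Both arrays lie on 1 slide together with the ATRA and ATRA+DEN arrays, while the vehicle and DEN arrays of day 7 lie on another.

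A gene was measured where at least 1 of its probes was well above background in both arrays, and the brightest such probe stood for it. It was counted as apart at a difference of 2-fold or more. Of 16932 measured genes, 304 were at least 2-fold higher in the G0s2 siRNA array (1.8%) and 231 at least 2-fold lower (1.36%), together 3.16%. At 4-fold or more, 48 were higher and 26 lower. The balance between the directions depends on the scaling. With the percentile taken over the probes well above background on all 6 day-7 arrays, 238 genes were higher and 310 lower, so that 43.4% of the genes apart were higher in place of 56.8%. The median difference over all genes was 0.07 with an SD of 0.44, and 59.5% of genes were above 0. The median was 0.00 for genes at a mean level of -2 to 0 and 0.18 for those at 4 or above, so that small positive medians of lists of abundant genes sit near this background.

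**Figure D2:**
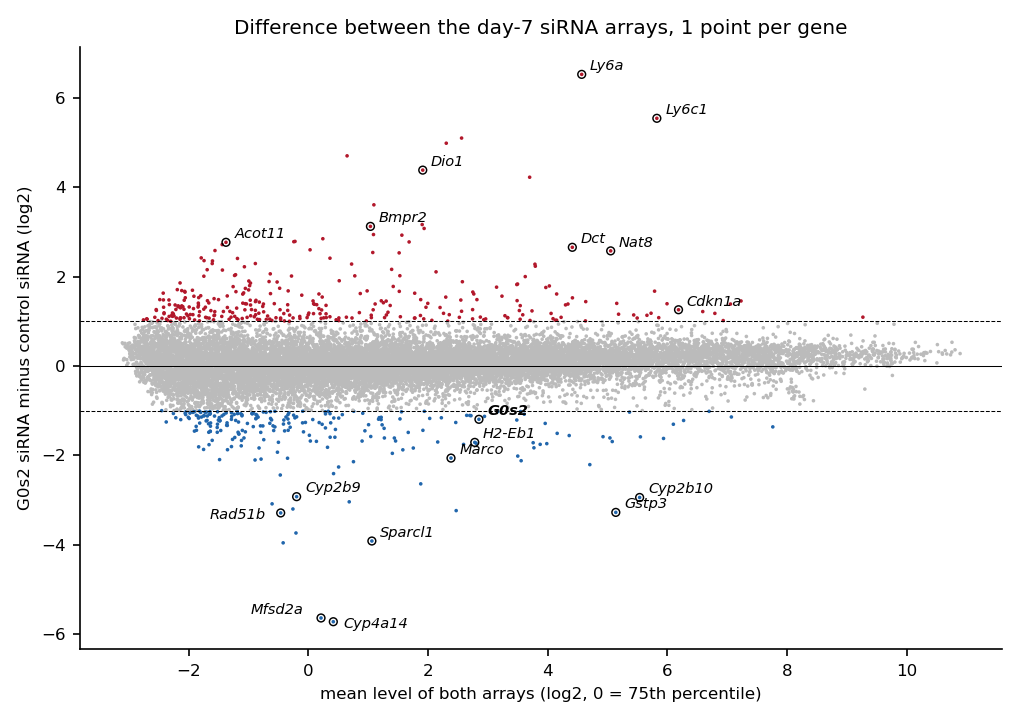
Difference between the G0s2 siRNA and the control siRNA array at day 7 (vertical axis, log2) against the mean level of both arrays (horizontal axis, log2 relative to the 75th percentile), with 1 point for each of the 16932 measured genes. Red points are at least 2-fold higher and blue points at least 2-fold lower in the G0s2 siRNA array, and G0s2 lies just past the lower 2-fold line while Ly6a and Ly6c1 stand highest and Cyp4a14 and Mfsd2a lowest.

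The siRNA arrays resembled each other more than either resembled the other day-7 arrays. Over probes well above background in both arrays of a pair, 3.15% were 2-fold apart between the G0s2 siRNA and control siRNA arrays, with Pearson's r of 0.989 across probes, which are not independent replicates. Between the G0s2 siRNA array and each of the other 4 arrays the share was 9.42% to 16.7%, and between the control siRNA array and each of them 8.65% to 15.6%. Among those 4 arrays it was 2.56% to 7.27%, with the lowest between the vehicle and ATRA arrays, which lie on different slides. The share within the siRNA pair was thus close to the lowest share between arrays of 2 other groups, and how much any pair of mice differs was not tested.

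For each gene, both siRNA arrays were placed against the other day-7 arrays to see which of them stood apart. The G0s2 siRNA array lay at least 2-fold above all 5 other day-7 arrays for 49 genes (0.289%) and at least 2-fold below all of them for 48 (0.283%). The control siRNA array lay at least 2-fold above all 5 others for 42 genes (0.248%) and below for 32 (0.189%). These numbers depend on the scaling, since with the percentile over probes well above background on all 6 day-7 arrays they were 40 above and 84 below for the G0s2 siRNA array and 46 above and 30 below for the control siRNA array. Of the 304 genes higher in the G0s2 siRNA array, 96 had the G0s2 siRNA array above the range of the other 4 with the control siRNA array inside it, 59 had the control siRNA array below the range with the G0s2 siRNA array inside it, and 63 had both. Of the 231 lower genes, 63 had the G0s2 siRNA array below the range with the control siRNA array inside it, 78 had the control siRNA array above it with the G0s2 siRNA array inside it, and 32 had both. Many genes apart in the pair also varied without siRNA. Among the 535 genes 2-fold apart, 56.1% spanned 2-fold or more over the other 4 arrays, against 14.7% of all measured genes.

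Among the 11881 measured genes with a gene symbol, 184 were at least 2-fold higher and 157 at least 2-fold lower. The largest differences upward were in 2 surface antigens of the Ly6 family, small proteins anchored to the cell membrane by lipid. Ly6a, also known as Sca-1 (chr15:74825553-74825612), had a level of 7.83 in the G0s2 siRNA array and 1.31 in the control siRNA array, a difference of 6.53. The other arrays had 6.42 (DEN), 1.66 (ATRA+DEN), 0.45 (ATRA) and 2.34 (vehicle). The G0s2 siRNA and DEN arrays were thus high and the other 4 low. Ly6c1 (chr15:74875495-74875554), a marker of monocytes and endothelium, had 8.60 in the G0s2 siRNA array and 3.05 in the control siRNA array, and its other probe differed by 3.92. The DEN array again came next at 7.51, and the remaining 3 lay between 3.00 and 4.42. The day-2 differences were 3.23 for Ly6a and 2.42 for Ly6c1. Of 5 measured Ly6 genes, Ly6g, a neutrophil antigen, was also past 2-fold at 1.01, which 5 of 9 alternative processings put just under 2-fold, and Ly6f was at least 9.66-fold higher. Ly6e differed by 0.71, and Ly6d by -0.20. Probes for close relatives in this family may read each other's transcripts, so the members cannot be fully told apart.

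Dio1, the enzyme of liver that converts thyroxine into active thyroid hormone, followed at 4.11 in the G0s2 siRNA array and -0.28 in the control siRNA array (chr4:106964052-106964088). Its level was -0.63 in the DEN array, 2.84 in the ATRA+DEN array, 3.02 in the ATRA array and 5.73 in the vehicle array, so both siRNA arrays lay inside a range that is itself wide. All 3 Dio1 probes showed the difference, at 3.00 to 4.41, and at day 2 it was 1.50. Hr, a corepressor that binds the thyroid hormone receptor, had 1.15 in the G0s2 siRNA array and -1.63 in the control siRNA array. The other 10 of 12 measured genes of thyroid hormone activation and response were within 2-fold, among them Thrsp, a thyroid-responsive lipogenic factor, at 6.35 in the G0s2 siRNA array and 6.07 in the control siRNA array.

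Several large differences upward came with the control siRNA array below all other day-7 arrays. H4c4, a histone H4 gene, had 3.49 in the G0s2 siRNA array and 0.32 in the control siRNA array, with 2.41 to 3.11 in the other 4. Clec2d, a ligand of a natural killer cell receptor, had 3.48 in the G0s2 siRNA array and 0.40 in the control siRNA array, with 3.39 to 4.59 in the others. Cmtm4 had 1.33 in the G0s2 siRNA array and -1.27 in the control siRNA array on its brighter probe, whereas its other probe differed by only -0.18. For Clec2d and Cmtm4 only the control siRNA array lay outside the range of the other 4, whereas for H4c4 the G0s2 siRNA array also lay above it. The control siRNA array was likewise the lowest of the 6 for Gbp11, an interferon-inducible GTPase, and Cyp26b1, which breaks down retinoic acid, with differences of 1.76 and 2.16.

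Other genes were highest in the G0s2 siRNA array among all 6. Bmpr2, a receptor for bone morphogenetic proteins (chr1:59927276-59927335), had 2.60 in the G0s2 siRNA array and -0.52 in the control siRNA array, with 0.01 to 0.40 in the other 4. Dct, an enzyme of pigment synthesis, had 5.74 in the G0s2 siRNA array and 3.09 in the control siRNA array, with 2.86 to 4.31 in the others. Pheta2, which acts in endosome traffic, had 1.57 in the G0s2 siRNA array and -0.84 in the control siRNA array, with -1.60 to -0.84 in the others. For Dct and Pheta2 the control siRNA array lay inside the range of the other 4, and for Bmpr2 it lay below. Nox4, an NADPH oxidase that makes hydrogen peroxide, had 3.19 in the G0s2 siRNA array and 1.08 in the control siRNA array, with 0.17 to 1.78 in the others. Nat8, an acetyltransferase of liver and kidney, had 6.34 in the G0s2 siRNA array and 3.77 in the control siRNA array, which were the highest and the lowest of the 6. Cibar1 (2.79) and Osbpl3 (2.58), an oxysterol-binding protein gene, were placed in the same way. Tcf7, a T cell transcription factor, Clec10a, a lectin of macrophages and dendritic cells, Rcn2 and Smok3b were also highest in the G0s2 siRNA array, with differences of 1.35 to 1.57, and for these the control siRNA array too lay above the other 4. Clec10a was well above background in only 2 of the 6 day-7 arrays, Rcn2 in 4 and Tcf7 in 5.

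The remaining genes among the 15 largest differences upward lay inside the range of the other arrays. Sult2a7, a sulfotransferase gene, had 3.03 in the G0s2 siRNA array and 0.10 in the control siRNA array, with 3.29 in the DEN array and -1.47 in the vehicle array. Cox6b2, a subunit of cytochrome c oxidase best known from testis, had 2.56 in the G0s2 siRNA array and -0.38 in the control siRNA array, with 3.51 in the ATRA+DEN array and -1.08 in the vehicle array. Acot11, an acyl-CoA thioesterase, had 0.01 in the G0s2 siRNA array and -2.76 in the control siRNA array. For these genes the G0s2 siRNA array was in the upper part of a wide range.

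**Figure D3:**
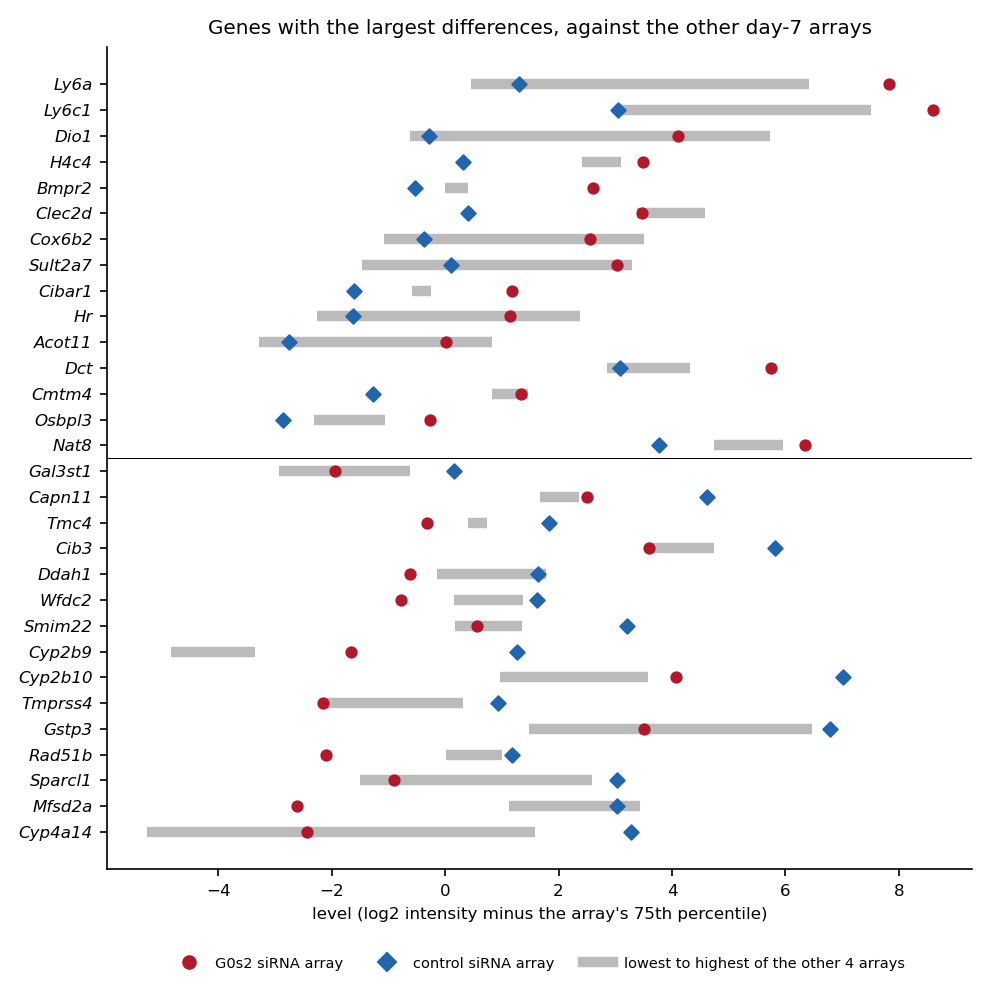
Levels of the 15 genes with the largest differences upward (above the line) and the 15 with the largest differences downward (below it), on the log2 scale relative to the array's 75th percentile, with red circles for the G0s2 siRNA array, blue diamonds for the control siRNA array and grey bars from the lowest to the highest of the other 4 day-7 arrays. For Mfsd2a only the red circle lies outside the bar, at -2.61, and for Clec2d only the blue diamond, at 0.40, whereas for Bmpr2 they lie on opposite sides of it at 2.60 and -0.52.

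The largest difference downward was in Cyp4a14, a fatty acid omega-hydroxylase and target of the nuclear receptor PPAR alpha (chr4:115158914-115158973). Its level was -2.44 in the G0s2 siRNA array and 3.28 in the control siRNA array, a difference of -5.73. The other arrays had 0.84 (DEN), 1.58 (ATRA+DEN), -4.66 (ATRA) and -5.27 (vehicle), so the control siRNA array was the highest of the 6 and the G0s2 siRNA array lay inside the range. Cyp4a14 was well above background in 4 of the 6 arrays, but not in the ATRA and vehicle arrays. At day 2 it was not well above background in both siRNA arrays. Cyp4a10 (chr4:115206200-115206259), its relative, had 3.00 in the G0s2 siRNA array and 4.75 in the control siRNA array, with 3.41 to 3.61 in the others, and all 3 of its probes were lower, by -1.15 to -2.92. Cyp4a31 had 2.86 in the G0s2 siRNA array and 4.69 in the control siRNA array, with 3 probes at -0.64 to -2.03. For both, the control siRNA array was the highest and the G0s2 siRNA array the lowest of the 6. Sequences of the Cyp4a genes are alike, so their probes may share transcripts.

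Beyond the Cyp4a genes, fatty acid oxidation was close between the arrays. Of 32 measured genes of fatty acid oxidation and PPAR alpha targets, 3 were at least 2-fold lower, the Cyp4a genes named, and none was higher. Of all genes, 1.36% were at least 2-fold lower and 1.8% higher. The list's median difference was 0.07, equal to that of all genes. Cpt1a, which admits fatty acids to mitochondria, had 5.71 in the G0s2 siRNA array and 5.48 in the control siRNA array.

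Mfsd2a, a transporter of lysophosphatidylcholine carrying docosahexaenoic acid and a gene induced by fasting in liver (chr4:122624182-122624241), came next. It had -2.61 in the G0s2 siRNA array and 3.03 in the control siRNA array, a difference of -5.64. The other arrays had 1.13 (DEN), 1.89 (ATRA+DEN), 2.54 (ATRA) and 3.44 (vehicle), so here the G0s2 siRNA array alone was low. Its day-2 difference was -1.61. Sparcl1, a matrix protein of the SPARC family, had -0.90 in the G0s2 siRNA array and 3.02 in the control siRNA array, with -0.29 (DEN), -1.51 (ATRA+DEN), 2.44 (ATRA) and 2.58 (vehicle), and differed by -3.70 at day 2. The control siRNA, ATRA and vehicle arrays were high for Sparcl1 and the others low.

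Further genes with a low G0s2 siRNA array were Rad51b, a homologous recombination factor, at -2.11 in the G0s2 siRNA array and 1.18 in the control siRNA array, with 0.01 to 1.00 in the others. Ddah1, which degrades an inhibitor of nitric oxide synthesis, had -0.62 in the G0s2 siRNA array and 1.64 in the control siRNA array, and both of its probes were lower. Bmp7, a bone morphogenetic protein, had -1.38 in the G0s2 siRNA array and 0.69 in the control siRNA array, with 0.05 to 1.10 in the others. These genes, with Syne4 (-1.93), the calcium pump gene Atp2b2 (-1.87), the potassium channel gene Kcnj10 (-1.67), the magnesium transporter gene Slc41a2 (-1.61), Yjefn3 (-1.28) and Noxred1 (-1.25), were lowest in the G0s2 siRNA array among the 6. For Atp2b2, Kcnj10, Yjefn3 and Noxred1 the control siRNA array too lay below the other 4. Rad51b, Wfdc2 (-2.41) and Tmc4 (-2.14) were lowest in the G0s2 siRNA array and highest in the control siRNA array. Gstp3, a glutathione transferase gene, had 3.50 in the G0s2 siRNA array and 6.78 in the control siRNA array, with 1.48 (ATRA) to 6.48 (vehicle) in the others, so the G0s2 siRNA array lay inside the range. Tmprss4 (-3.09), Smim22 (-2.64), Cib3 (-2.21), Capn11 (-2.12), Gal3st1 (-2.11) and Shisa8 (-1.81) were instead highest in the control siRNA array.

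Genes of triglyceride lipolysis, the process that G0s2 restrains, were within 2-fold in 17 of 20 measured cases. The 3 others were G0s2 itself, Abhd5 and Angptl8, where 3.16% of all genes were 2-fold apart. The list's median of 0.15 turns negative in 3 of 9 alternative processings. Pnpla2, the lipase that the G0s2 protein inhibits, had 4.69 in the G0s2 siRNA array and 4.45 in the control siRNA array, with 3.81 to 4.08 in the other 4, so both siRNA arrays were above the rest and close to each other. Its activator Abhd5 had 3.49 in the G0s2 siRNA array and 2.44 in the control siRNA array, with 3.59 (DEN), 3.79 (ATRA+DEN), 2.53 (ATRA) and 2.76 (vehicle). The Abhd5 difference of 1.05 was just past 2-fold and under it in 5 of 9 alternative processings, and its 3 probes ranged from 0.71 to 1.05. Angptl8, a secreted inhibitor of lipoprotein lipase that is induced by feeding (chr9:21641729-21641788), had 5.13 in the G0s2 siRNA array and 6.75 in the control siRNA array. The other 4 arrays had 6.50 to 7.64, so the G0s2 siRNA array was the lowest of the 6, and at day 2 the difference was -0.86. Lipe, the hormone-sensitive lipase, had -1.29 in the G0s2 siRNA array and -1.52 in the control siRNA array.

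Proteins of the lipid droplet were likewise near the control level in 12 of 14 measured genes. Plin2, the main droplet coat protein of hepatocytes, had 6.24 in the G0s2 siRNA array and 6.34 in the control siRNA array, with 7.00 to 7.29 in the others. Plin5, a coat protein that recruits the lipase and Abhd5, had 6.83 in the G0s2 siRNA array and 6.70 in the control siRNA array. Fitm1, which acts in droplet formation, had 3.17 in the G0s2 siRNA array and 1.95 in the control siRNA array, and Mettl7b, a droplet-associated methyltransferase, had 4.65 in the G0s2 siRNA array and 3.47 in the control siRNA array. Those 2 were past 2-fold, where 3.16% of all genes were 2-fold apart. For Mettl7b the control siRNA array was below the other 5. For Fitm1 it was barely below the DEN array at 1.97, and the G0s2 siRNA array was the highest of the 6, above 2.71 in the vehicle array. Hsd17b13, a droplet enzyme of hepatocytes, differed between its probes, a gene singled out after its values were seen. Its brighter probe (chr5:104392792-104392851) had 5.82 in the G0s2 siRNA array and 6.43 in the control siRNA array, but its other probe (chr5:104384701-104384760) had 2.84 in the G0s2 siRNA array and -2.74 in the control siRNA array. On that probe the DEN and ATRA+DEN arrays had 2.65 and 1.42, against -2.61 in the ATRA array and -2.44 in the vehicle array. At day 2 the probes differed in the same directions, by -0.94 and 3.49.

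Lipid synthesis showed no member 2-fold apart. The median over 24 measured genes of fatty acid synthesis was -0.31, and it stayed negative in every alternative processing. Of these, 17 were lower in the G0s2 siRNA array, against 40.5% of all genes. Scd1, the main stearoyl-CoA desaturase of liver, had 6.98 in the G0s2 siRNA array and 7.68 in the control siRNA array, and Fads1, a desaturase of polyunsaturated fatty acids, had 3.25 in the G0s2 siRNA array and 4.02 in the control siRNA array. Fasn, the fatty acid synthase, had -0.31 in the G0s2 siRNA array and 0.02 in the control siRNA array, with 2.02 to 2.91 in the others, so that both siRNA arrays were low. The 20 genes of triglyceride synthesis and secretion had a median of -0.01, with Apoa4 (-0.60) and Gpat3 (-0.44) the farthest. The 25 genes of cholesterol synthesis had a median of -0.04. Both siRNA arrays lay below all other 4 for 22 of these 25, against 17.2% of all genes. Among them was Sqle, which makes squalene epoxide, with 0.78 in the G0s2 siRNA array, -0.02 in the control siRNA array and 3.14 to 5.15 in the others.

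Among genes of bile acid synthesis and transport, 20 of 26 were lower in the G0s2 siRNA array, against 40.5% of all genes, with a median of -0.14, and 3 were 2-fold apart, against 3.16% of all genes. Slco1a4, an organic anion transporter, had 1.31 in the G0s2 siRNA array and 3.01 in the control siRNA array, and Cyp39a1, an oxysterol hydroxylase, had 0.25 in the G0s2 siRNA array and 1.83 in the control siRNA array. For both, the control siRNA array was the highest of the 6. Cyp7b1, which acts in the alternative pathway of bile acid synthesis, had 7.38 in the G0s2 siRNA array and 6.21 in the control siRNA array, with 6.93 to 8.04 in the others. Cyp7a1, the rate-limiting enzyme of the classical pathway, had 3.24 in the G0s2 siRNA array and 3.97 in the control siRNA array.

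Among genes of gluconeogenesis and fasting signals, 21 of 23 were within 2-fold, where 3.16% of all genes were 2-fold apart. Got1, an aspartate aminotransferase, had 5.45 in the G0s2 siRNA array and 6.75 in the control siRNA array, with 5.13 to 6.44 in the others, and Ppargc1a, a coactivator induced by fasting, had -0.23 in the G0s2 siRNA array and 0.80 in the control siRNA array, a difference that 3 of 9 alternative processings put under 2-fold. The control siRNA array was the highest of the 6 for both. None of 20 clock genes, 13 genes of the urea cycle and ammonia handling or 22 genes of glutathione and NRF2 defence was 2-fold apart. Noct, a clock-controlled deadenylase, was the farthest clock gene at 0.76, while its other probe stood at -1.02. In the urea cycle, Gls2 (-0.61) and Cps1 (-0.51) were the farthest, and among the defence genes Ugdh, which makes UDP-glucuronate, reached 0.99 and Hmox1, the heme oxygenase, -0.80.

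Of 24 measured xenobiotic P450 enzymes and their receptors, 4 were at least 2-fold lower and 1 higher, against 1.36% and 1.8% of all genes. Cyp2b10, the marker gene of the receptor CAR (chr7:26711522-26711581), had 4.07 in the G0s2 siRNA array and 7.01 in the control siRNA array, with 2.37 (DEN), 3.58 (ATRA+DEN), 0.96 (ATRA) and 1.96 (vehicle). Cyp2b9, its close relative, had -1.66 in the G0s2 siRNA array and 1.27 in the control siRNA array, with -4.83 to -3.35 in the others. Of the 6 day-7 arrays, Cyp2b9 was well above background in the 2 siRNA arrays only, so its values in the other 4 are background. Both siRNA arrays were thus above the other 4 for both genes, and the control siRNA array was the higher of them. The day-2 differences were -3.59 and -4.49. Cyp1a2, which activates aromatic amines, had 4.76 in the G0s2 siRNA array and 6.34 in the control siRNA array, and Cyp2c37 had 2.88 in the G0s2 siRNA array and 4.09 in the control siRNA array. Nr1i2, the pregnane X receptor PXR, had 4.85 in the G0s2 siRNA array and 3.09 in the control siRNA array, with 3.96 to 4.59 in the others, and these arrays were the highest and the lowest of the 6. Nr1i3, which encodes CAR, had 5.12 in the G0s2 siRNA array and 5.03 in the control siRNA array. Cyp2b genes share much sequence and may share probes.

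Mouse liver expresses many genes at different levels in the sexes, under control of growth hormone. Of 22 measured male-biased genes, 20 were higher in the G0s2 siRNA array, with a median of 0.37, against 59.5% above 0 and a median of 0.07 over all genes. The list's median level was 6.51 in the G0s2 siRNA array, and all genes at a mean level of 4 or above had a median difference of 0.18. The median of 0.37 ran from 0.18 to 0.39 over the main and alternative processings. Male-biased genes past 2-fold were Nox4 (2.11), Cyp7b1 (1.18) and Elovl3, an enzyme of very long fatty acids, with 5.14 in the G0s2 siRNA array and 4.13 in the control siRNA array. The Elovl3 difference of 1.01 was under 2-fold in 5 of 9 alternative processings. The male-biased genes had a median of 1.02 at day 2. Of 9 measured female-biased genes, 3 were at least 2-fold lower and 1 higher, against 1.36% and 1.8% of all genes. Cyp4a14, Cyp2b9 and Hamp2, a hepcidin, were the lower ones. Cyp17a1, a steroid hydroxylase, was higher by 1.05, which 5 of 9 alternative processings put under 2-fold. Hamp2 had 2.49 in the G0s2 siRNA array and 4.51 in the control siRNA array. Their median of 0.10 turned negative in 3 of 9 alternative processings, and their day-2 median was -2.02 over 7 genes. Another female-biased gene, Cyp3a44, was well above background in the control siRNA array only and at least 2.59-fold lower in the G0s2 siRNA array. In the growth hormone axis, 1 of 18 genes was apart. Igfbp2, which binds insulin-like growth factors, had 4.23 in the G0s2 siRNA array and 5.93 in the control siRNA array, with 4.93 to 5.73 in the others, and both of its probes were lower. Igf1 itself had 7.50 in the G0s2 siRNA array and 7.25 in the control siRNA array.

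Targets of p53, the transcription factor that answers DNA damage, were somewhat higher in the G0s2 siRNA array. Of 25 measured targets, 19 were higher, against 59.5% of all genes, 4 of them by 2-fold or more, against 1.8% of all genes, and none was lower by 2-fold, and the median of 0.52 stayed between 0.43 and 0.52 in all alternatives. Cdkn1a, the cell cycle inhibitor p21 (chr17:29237377-29237436), had 6.82 in the G0s2 siRNA array and 5.56 in the control siRNA array, and its 3 probes differed by 0.51 to 2.63. The other arrays had 6.83 (DEN), 6.62 (ATRA+DEN), 2.84 (ATRA) and 1.96 (vehicle). Psrc1, a microtubule-associated protein, had 0.40 in the G0s2 siRNA array and -1.67 in the control siRNA array, with 0.64 (DEN), 1.10 (ATRA+DEN), -4.47 (ATRA) and -4.63 (vehicle). Its ATRA and vehicle values are background, as Psrc1 was well above background in the other 4 arrays only. Both siRNA arrays were thus far above the vehicle array, with the G0s2 siRNA array near the DEN arrays. Gtse1, which restrains p53, differed by 1.32, and Phlda3, an inhibitor of Akt signalling, by 1.07, the last under 2-fold in 5 of 9 alternatives. Mdm2, which marks p53 for degradation, had 5.77 in the G0s2 siRNA array and 5.25 in the control siRNA array, against 6.05 in the DEN array and 3.83 in the vehicle array. Over the list, 19 of 25 targets stood at least 2-fold above the vehicle array in the G0s2 siRNA array, and likewise 19 in the control siRNA array and 18 in the DEN array, whereas 1 did in the ATRA array. Among all probes well above background in both arrays compared, 1325 of 21611 did so in the G0s2 siRNA array and 1050 of 22598 in the control siRNA array. In the DEN array 786 of 22529 did, and in the ATRA array 305 of 22660. The targets had to be well above background in the siRNA arrays but not in the vehicle array, which favours differences upward from it. The median difference from the vehicle array was 2.24 in the G0s2 siRNA array, 1.80 in the control siRNA array and 2.22 in the DEN array. At day 2 the median of the siRNA difference was -0.12. Cell cycle genes had a median of 0.21 over 21 genes with none 2-fold apart, and Ccna2 (0.78) and Cdk1 (0.60) were the farthest.

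**Figure D4:**
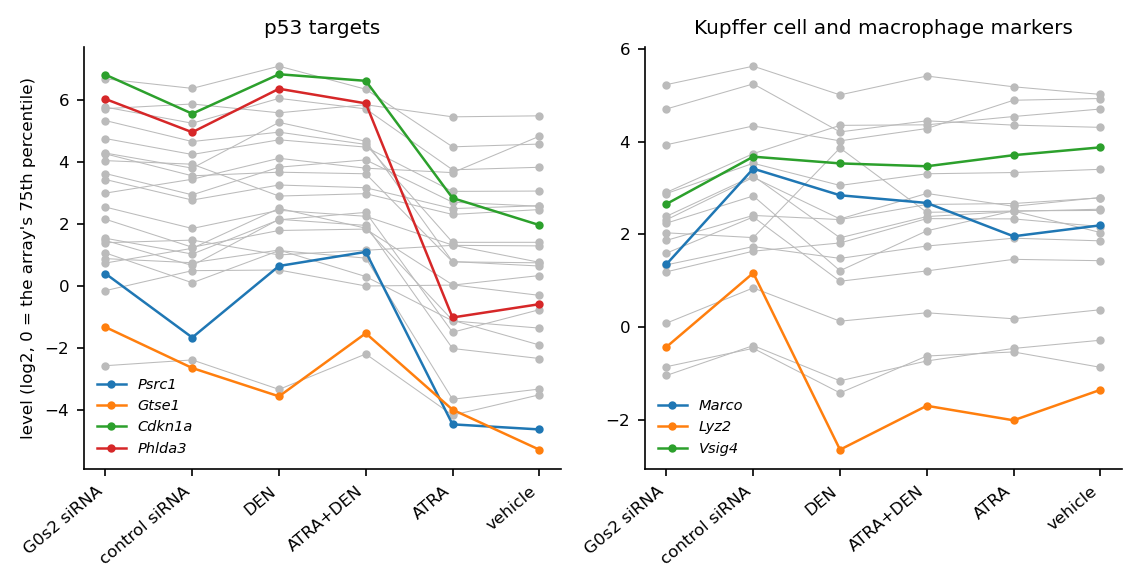
Levels (log2 relative to the array's 75th percentile) of the measured p53 targets and of the Kupffer cell and macrophage markers in the 6 day-7 arrays, with 1 line per gene and colour for genes at least 2-fold apart between the siRNA arrays. Cdkn1a stands at 6.82 in the G0s2 siRNA array and 5.56 in the control siRNA array against 1.96 in the vehicle array, and Marco stands at 1.35 in the G0s2 siRNA array and 3.42 in the control siRNA array.

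Markers of Kupffer cells, the resident macrophages of liver, were lower in the G0s2 siRNA array for 18 of 19 measured genes, against 40.5% of all genes, with a median of -0.64 that stayed between -0.73 and -0.60 in all alternatives. Marco, a scavenger receptor, had 1.35 in the G0s2 siRNA array and 3.42 in the control siRNA array, with 2.84 (DEN), 2.68 (ATRA+DEN), 1.96 (ATRA) and 2.19 (vehicle). Vsig4, a complement receptor, had 2.65 in the G0s2 siRNA array and 3.68 in the control siRNA array, with 3.47 to 3.88 in the others. Lyz2, lysozyme, had -0.43 in the G0s2 siRNA array and 1.16 in the control siRNA array, with -2.65 to -1.36 in the others. For Lyz2 both siRNA arrays thus lay above the other 4. Clec4f, the lectin that marks Kupffer cells, had 2.91 in the G0s2 siRNA array and 3.74 in the control siRNA array, with 4.35 to 4.70 in the others. The exception was Itgam, at 2.03 in the G0s2 siRNA array and 1.93 in the control siRNA array. Against the other 4 arrays, the G0s2 siRNA array was below their range for 11 of the 19 genes and the control siRNA array above it for 11. Over all genes, both siRNA arrays were below the range for 17.2% and both above it for 24.5%. The G0s2 siRNA array alone was below it for 5.33%, and the control siRNA array alone above it for 5.28%. For 0.815% the G0s2 siRNA array was below and the control siRNA array above. The summed linear level of the 19 markers was 136 in the G0s2 siRNA array and 209 in the control siRNA array, with 155 to 182 in the other 4. In bulk liver, fewer macrophages and less RNA per macrophage cannot be told apart. At day 2 the median was -0.32.

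MHC class II genes present antigen on macrophages, dendritic cells and B cells. They were lower in the G0s2 siRNA array for all 6 measured genes, against 40.5% of all genes, with a median of -0.72. H2-Eb1 had 1.93 in the G0s2 siRNA array and 3.64 in the control siRNA array, with -1.26 (DEN), 3.44 (ATRA+DEN), 2.83 (ATRA) and -0.44 (vehicle). H2-Ab1 had 2.87 in the G0s2 siRNA array and 3.80 in the control siRNA array, and Cd74, the invariant chain, had 2.63 in the G0s2 siRNA array and 3.36 in the control siRNA array. For H2-Ab1 and Cd74 the G0s2 siRNA array was the lowest of the 6. At day 2 the median over these genes was 0.24. The macrophage markers above were lower in the same array, and their part in these values was not tested.

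Markers of other cell types were mostly within 2-fold. The 20 hepatocyte markers were all within 2-fold with a median of 0.18, and Alb, albumin, had 10.75 in the G0s2 siRNA array and 10.28 in the control siRNA array. Their summed linear level was 15569 in the G0s2 siRNA array and 13462 in the control siRNA array, so the labelled tissue had its markers in both. Among 15 markers of sinusoidal endothelium only Tek, the angiopoietin receptor, was past 2-fold, at 0.06 in the G0s2 siRNA array and -0.98 in the control siRNA array, which 2 of 9 alternatives put under 2-fold, and their summed level was 190 in the G0s2 siRNA array and 189 in the control siRNA array. Among 12 stellate cell and matrix markers only Acta2, smooth muscle actin, was past it, at 0.42 in the G0s2 siRNA array and -1.46 in the control siRNA array. Sox9, a marker of bile duct cells, had -2.17 in the G0s2 siRNA array and -0.87 in the control siRNA array. None of 8 lymphocyte markers was 2-fold apart, with Gzma (0.77) and Cd4 (0.67) the farthest. Their summed level was 134 in the G0s2 siRNA array and 87.1 in the control siRNA array, with 62.3 to 105 in the others. That sum is mostly Cd4, at 6.92 in the G0s2 siRNA array and 6.25 in the control siRNA array. The median level of the 8 markers was only -0.55 in the G0s2 siRNA array and -0.72 in the control siRNA array. Of 6 neutrophil markers, 5 were lower in the G0s2 siRNA array, against 40.5% of all genes, and Ly6g was higher. Their median was -0.20, and their summed level was 111 in the G0s2 siRNA array and 131 in the control siRNA array. Red cell genes differed little within the pair, although both siRNA arrays held far more globin than the others, as Hba-a2 had 8.40 in the G0s2 siRNA array, 8.37 in the control siRNA array and 5.06 to 6.62 in the other 4. Of 14 markers of pancreas, muscle and fat, 3 were measured and none was 2-fold apart, with a median of 0.67 and Cela2a (0.71), a pancreatic elastase gene, the farthest.

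Interferon-induced genes, listed because siRNA can set off RNA sensors, had a median of 0.06 over 30 genes. That median turned negative in 4 of 9 alternatives. Of the 30 genes, 3 were at least 2-fold higher and none was 2-fold lower, against 1.8% and 1.36% of all genes. Usp18, a protease that removes the ubiquitin-like Isg15, had 1.81 in the G0s2 siRNA array and 0.42 in the control siRNA array, with -0.75 to 0.84 in the others. Ifit1, an RNA-binding effector, had 0.16 in the G0s2 siRNA array and -1.10 in the control siRNA array, with -2.41 to -0.45 in the others. Both were highest in the G0s2 siRNA array. Isg15 itself had 4.36 in the G0s2 siRNA array and 3.12 in the control siRNA array, with 3.60 to 4.54 in the others. The list's median was -0.87 at day 2. Of 18 genes of RNA interference and RNA sensing, Zbp1, a sensor of Z-form nucleic acid, was past 2-fold with 2.09 in the G0s2 siRNA array and 0.99 in the control siRNA array, and its other probe differed by 0.44. The Zbp1 difference was under 2-fold in 2 of 9 alternatives.

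Acute phase and stress genes were mostly near the control siRNA array. Of 25 acute phase genes, Lcn2, lipocalin 2, was past 2-fold with 4.66 in the G0s2 siRNA array and 3.64 in the control siRNA array, which 5 of 9 alternatives put under 2-fold. Of 26 genes of ER stress and heat shock, 22 were higher, against 59.5% of all genes, with a median of 0.24 that fell to 0.09 in an alternative. Their median level was 4.21 in the G0s2 siRNA array, and all genes at a mean level of 4 or above had a median difference of 0.18. Hspb1, a small heat shock protein, was lower at 4.85 in the G0s2 siRNA array and 5.89 in the control siRNA array. Hspa5, the main chaperone of the endoplasmic reticulum, had 7.26 in the G0s2 siRNA array and 6.54 in the control siRNA array, with 7.39 to 8.55 in the others, so both were low. The metallothioneins Mt1 and Mt2, which bind zinc, were high in both arrays. Mt1 had 8.05 in the G0s2 siRNA array and 8.83 in the control siRNA array, with 2.82 to 5.20 in the others, and Mt2 had 7.40 in the G0s2 siRNA array and 8.06 in the control siRNA array, with 1.53 to 5.65. A dim second Mt1 probe differed by 0.58. Of 11 immediate early genes, Egr1 (1.36) and Zfp36 (1.09) were at least 2-fold higher, against 1.8% of all genes. Of 9 cytokines and chemokines none was 2-fold apart, with Cx3cr1 (-0.89) and Cxcl12 (-0.65) the farthest.

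**Figure D5:**
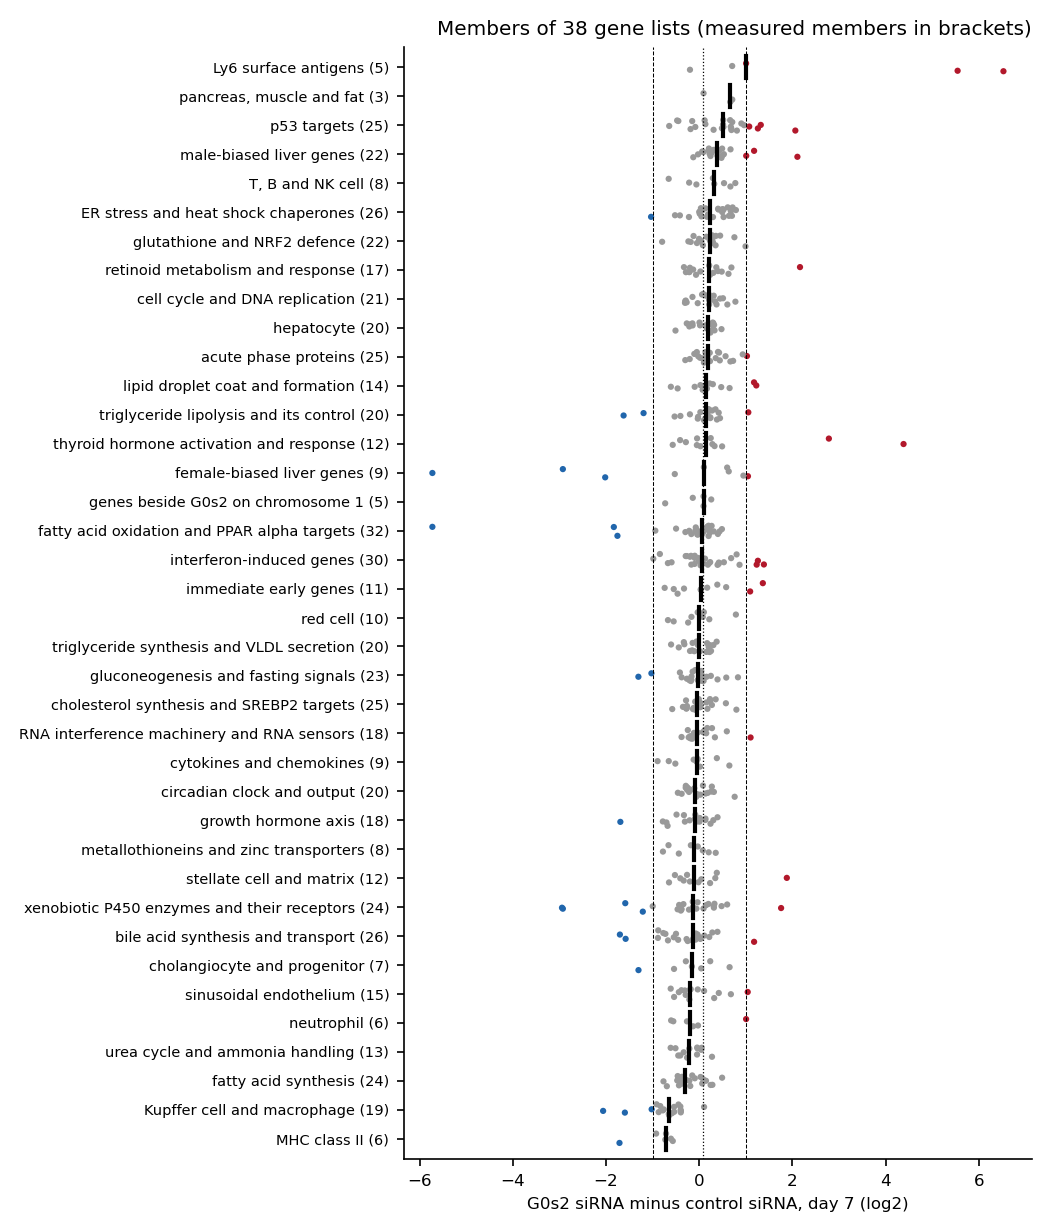
Differences between the G0s2 siRNA and control siRNA arrays at day 7 (log2) for the measured members of 38 gene lists, ordered by their median, with 1 point per gene, a black bar at the median, dashed lines at 2-fold and a dotted line at the median of all genes, 0.07. The Ly6 antigens and p53 targets lie toward the top with medians of 1.01 and 0.52, and the macrophage markers and MHC class II genes lie lowest at -0.64 and -0.72.

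Some genes were well above background in 1 array of the pair only, for which the fold is a lower bound, computed against the lowest signal well above background or the dim probe's own level, whichever was higher. Camk2b, a calmodulin-dependent kinase subunit, was at least 104-fold higher in the G0s2 siRNA array, at 3.29 in the G0s2 siRNA array and -4.92 in the control siRNA array, and the DEN array had 2.83. Adck1 was at least 40.2-fold higher, at 1.92 in the G0s2 siRNA array and -5.55 in the control siRNA array, with 1.92 to 2.19 in the other 4, so the control siRNA array alone lacked signal. Dmbt1, a mucosal scavenger protein (12.1-fold), and Gnb5, a G protein beta subunit (10.5-fold), were at least that much higher in the G0s2 siRNA array. In the other direction, Cck, cholecystokinin, was at least 31.1-fold lower, at -4.30 in the G0s2 siRNA array and 1.93 in the control siRNA array, with 0.28 to 1.13 in the others. Mas1, an angiotensin-(1-7) receptor (18.3-fold), Amn (17.6-fold) and Them7 (16.8-fold) were at least that much lower. In all, 187 genes had a bound of 2-fold or more upward and 126 downward.

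The pair of day 2 gave a second comparison of G0s2 siRNA with control siRNA, on other arrays and another slide. Of 270 genes at least 2-fold higher at day 7 and measured at both days, 37 (13.7%) were also at least 2-fold higher at day 2 and 22 (8.15%) were at least 2-fold lower, against 1.17% and 1.18% of all genes. Of 219 genes lower at day 7, 35 (16.0%) were also lower at day 2 and 9 (4.11%) were higher. The shared genes were 19.1% of those higher and 17.9% of those lower at day 2. Ly6a, Ly6c1, Dio1, Mfsd2a, Sparcl1, Cyp2b10 and Cyp2b9 had the same sign at both days. Across 16639 genes, which are not independent replicates, Pearson's r between the differences of the days was 0.17.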

How the data were processed

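Liver RNA was hybridised to Agilent 1-colour arrays. The deposited files hold processed spot intensity, background-subtracted and detrended by Agilent Feature Extraction, version 10.7.1.1 per the file headers and 9.5.1.1 per the submitters' processing notes. The deposited series table holds intensity values normalized by the authors and served as an alternative.

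Control and outlier spots were left out, log2 intensities were averaged per probe, and the 75th percentile of its array was taken off each value. Probes well above background on both arrays were kept, and a gene was represented by its kept probe with the highest mean over the 6 day-7 arrays. Of 55681 probes, 27229 were named through their accession, 3586 through their symbol and 565 through a synonym in RefSeq, and 24301 kept the array's name. Positions are those of the array design on mm9. With 1 array per group no test was run, and a gene counted as apart at 2-fold. The precision is limited by having 1 array per group. The computation was tested on simulated data. Python 3.11.15, pandas 2.3.3, R 4.3.3 and limma 3.58.1 (normexp, offset 50) were used.

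Genes were named by a rule. G0s2 and its neighbours were given, with the 15 largest differences each way, the 10 largest margins each way by which the G0s2 siRNA array and the 5 by which the control siRNA array lay outside all other day-7 arrays, up to 4 members of each list, and the 5 largest bounds each way. Genes without a symbol were counted only, and a few genes that the rule names are not reported here. A few further members are given where their role is central to the list. The comparison, its members and the 38 lists were chosen with earlier results of these data known. Scaling, background correction, filters, the choice of probe and outlier spots were varied in 9 alternatives.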

Additional observations from a re-analysis of the deposited data

Results flagged for a closer look

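Genes named in the report were looked at again where the difference between the G0s2 siRNA and the control siRNA array was at least 2-fold at both days and of opposite sign. With 1 array per group at each day, the difference between the days was not tested. H4c4, a histone H4 gene, stood at 3.17 at day 7 and at -2.81 at day 2. Cibar1 stood at 2.79 at day 7 and at -1.03 at day 2, and Hr, the thyroid receptor corepressor, at 2.78 at day 7 and at -1.55 at day 2. Smim22 stood at -2.64 at day 7 and at 1.79 at day 2, and Bmp7, a bone morphogenetic protein, at -2.07 at day 7 and at 1.47 at day 2. The p53 target Phlda3 stood at 1.07 at day 7 and at -1.06 at day 2. The interferon-induced genes Usp18 and Ifit1 stood at 1.39 and 1.26 at day 7, and at -1.17 and -1.11 at day 2. Over all genes, 103 were at least 2-fold apart at both days, and 31 of them had opposite signs.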

How the results depend on the processing

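The difference in G0s2 stayed past 2-fold and negative in all 9 alternatives, but not all of these could move it. Since 1 probe reads G0s2, the filters and the choice of probe left it at -1.19, and keeping outlier spots did too. In the scaling and background alternatives it lay between -1.28 and -1.20. No difference or list median that was at least 2-fold apart turned its sign. With the percentile over probes well above background on all 6 day-7 arrays, the G0s2 siRNA array lay below the others for 84 genes. With normexp background correction, 120 genes were higher and 96 lower, the G0s2 siRNA array lay above all others for 24 genes and below for 10, and the control siRNA array above for 26 and below for 14. With no filter on dim probes, 2414 genes were higher and 1395 lower, the G0s2 siRNA array lay above the others for 96 and below for 74, and the control siRNA array above for 83. With genes well above background on all 6 day-7 arrays, the G0s2 siRNA array lay above the others for 32. The cause of these shifts was not tested. Of 83 named genes 2-fold apart, 60 stayed so in every alternative run and 23 were under 2-fold in at least 1, of which normexp correction put 22 under it. Abhd5, Cyp17a1, Elovl3, Lcn2, Ly6g and Phlda3 were under 2-fold in every scaling and background alternative. They stayed past it only where filters, the choice of probe or outlier spots were varied. Under normexp these include Atp2b2, Kcnj10, Noxred1, Yjefn3, Shisa8, Clec10a, Rcn2, Tcf7, Egr1, Zfp36, Gtse1, Ifit1 and Sox9, each past 2-fold in the other alternatives run, and loess put Cyp7b1 under it. The median of all genes lay between -0.01 and 0.07 across the scalings. Loess within the pair gives no counts outside the other arrays. No paired analysis was possible because each group has 1 array, and for the same reason no replicate could be left out. Dim genes are a further limit, since 2190 probes were well above background in the control siRNA array only and 613 in the G0s2 siRNA array only.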

Other observations

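Genes with several probes showed where the value of a gene rests on 1 stretch of its transcript. Of 3152 measured genes with a symbol and several probes, 125 had a probe at least 2-fold apart, and in 34 of these the probes had both signs. The genes named here were chosen after their values were seen. Tfrc, the transferrin receptor, stood at 0.06 on its brighter probe and at -3.71 on the other. Slc17a2, a transporter of the phosphate transporter family, stood at 0.05 on its brightest probe while its 3 probes ran between -1.22 and 2.66. Timmdc1, an assembly factor of respiratory complex I, stood at 0.33 with probes between -1.77 and 2.59. Dnajb6, a chaperone, stood at 0.10 on its brightest probe and had another probe at 3.13. Whether these probes read other transcripts of the gene or another sequence was not tested.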
